A study of Mus musculus with 29 samples.

Results

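Plasma cells are the antibody-secreting end stage of the B-cell lineage. On the way to this state the transcription factors IRF4 and BLIMP-1 (Prdm1) shut down the B-cell programme, and XBP1 enlarges the endoplasmic reticulum (ER) so that large amounts of antibody can be folded and exported. In lupus such cells make the autoantibodies against double-stranded DNA (dsDNA), in lymphoid organs, in bone marrow and in inflamed kidneys. Described here are 6 genes that mark this state, taken by name from the table of 13982 genes: Igj (the J chain, Jchain in current annotation), which joins IgM and IgA into polymers; Mzb1, an ER cochaperone of antibody assembly; Derl3, a derlin of ER-associated degradation; Xbp1, a transcription factor of the unfolded protein response; Prdm1, the BLIMP-1 repressor; and Sdc1, the surface proteoglycan syndecan-1 (CD138) used to sort plasma cells. All 6 were listed in all 14 libraries.

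The libraries came from (NZBxNZW)F1 mice, a cross that develops lupus nephritis, and the labels give no transgene or treatment for any group. Proteinuric mice gave 4 kidney libraries (mice H6, H20, H115 and H117, aged 39, 36, 25 and 32 weeks), 3 libraries of tertiary lymphoid structures (TLS), which are immune aggregates dissected by hand from the kidneys under a loupe (mice H6, H20 and H115), and 3 of lymph node (mice H6, H20 and H117). The other 4 were lymph nodes, 3 from anti-dsDNA antibody-positive mice without the proteinuric label (mice D10, D11 and L25, aged 28, 29 and 18 weeks) and 1 from a mouse labelled young (mouse C45, aged 4 weeks). RNA of the antibody-positive nodes was isolated with another kit (miRNeasy) than all other RNA (TRIzol), so kit and disease stage cannot be told apart. The antibody-positive mice were also all younger than the proteinuric mice that gave lymph nodes, so age and stage cannot be told apart either.

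The value listed for a gene is 1 more than its reads, scaled by the library's size factor, and the reads were recovered from it. Libraries held between 343825 and 443379 reads, and 3 reads corresponded to 2.36 to 5.32 units of this value. Ribosomal RNA genes took 55.6% of reads in the H117 kidney, 31.8% in the H6 lymph node and 21.3% in the H115 TLS, and at most 5.33% elsewhere. The labelled tissues had their defining genes. The 5 distal nephron and collecting duct genes had no read in any lymph node, whereas their summed normalised reads were between 679 and 1335 in TLS and between 865 and 3312 in kidney, so TLS pieces held kidney RNA as well. Summed B-cell marker reads were between 319 and 460 in TLS, between 587 and 866 in lymph nodes of proteinuric mice and between 0 and 20.2 in kidney. These are bulk libraries, in which fewer plasma cells and less RNA per plasma cell cannot be told apart.

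Igj, Mzb1, Derl3, Xbp1 and Sdc1 had enough reads to be tested, and all 5 were lower in kidney than in TLS and lower in kidney than in lymph node. Mzb1 differed most, with log2 fold changes of -4.94 against TLS and -6.15 against lymph node (kidney first), and Xbp1 and Sdc1 least. None of the 5 passed the test between lymph node and TLS or between antibody-positive and proteinuric lymph nodes (limma). Prdm1 had no read in any kidney library and between 0 and 6 in each other one, below the level at which genes were tested. The call was an adjusted p under 0.05 in limma on log2(value + 1), with Benjamini-Hochberg adjustment over the genes whose values averaged 5 or more. Of all 7382 genes tested, 8.62% were called higher in TLS than in kidney and 20.8% higher in lymph node than in kidney, beside 5 of 5 plasma cell genes in each. Derl3, with a kidney mean of 2.25, reached the mean of 5 only through TLS and lymph node. For Derl3 the filter itself thus favoured this direction. For lymph node versus TLS, 10.6% of genes were called in either direction, beside 0 of 5, with 1 member (Derl3) and 1671 genes at an unadjusted p under 0.05. The edgeR quasi-likelihood test called 785 genes and DESeq2 832 there, 0 of them members.

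**Figure D1:**
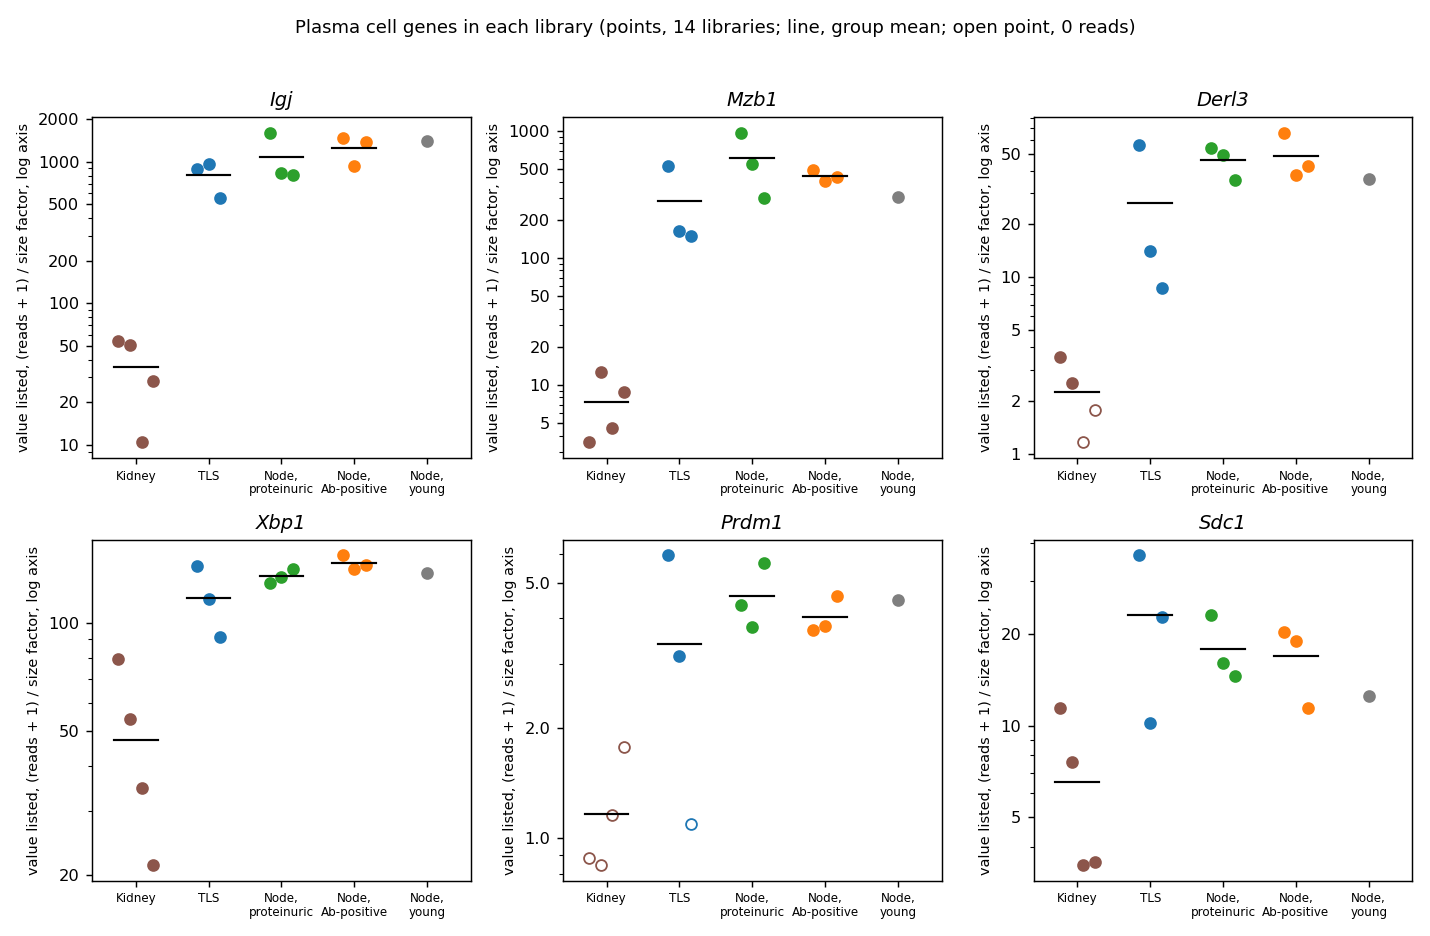
Value listed (reads plus 1 over the size factor, log axis) of the 6 genes in each of the 14 libraries by group, with lines at group means and open points for libraries with 0 reads; Node stands for lymph node and Ab-positive for antibody-positive. Kidney libraries lie below all other libraries for Igj (at most 53.9) and Mzb1 (at most 12.7), whereas TLS and lymph node points overlap for all 6 genes.

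Igj (ENSMUSG00000067149, GRCm38 chromosome 5, 88519809 to 88527891, minus strand) had the most reads of the members, summed over the libraries. Its values in kidney were 53.9, 50.6, 10.4 and 28.4 in mice H6, H20, H115 and H117. In TLS they were 889, 971 and 559 in mice H6, H20 and H115, and in lymph node of proteinuric mice 1607, 836.5 and 802 in mice H6, H20 and H117. The lowest TLS library was thus above every kidney library, and the TLS and lymph node ranges overlapped. Antibody-positive lymph nodes had 1471, 939 and 1370 in mice D10, D11 and L25, and the young lymph node 1414. The group means fell in the order young (1 library), antibody-positive (1260 ± 283, SD, n = 3), proteinuric lymph node (1082 ± 455, n = 3), TLS (806 ± 218, n = 3) and kidney (35.8 ± 20.4, n = 4). Of the neighbours in this order that could be tested, only TLS and kidney differed beyond their spread. On the log2 scale, kidney minus TLS was -4.65 (SE 0.54, limma, adjusted p = 0.000176) and kidney minus lymph node -5.04 (SE 0.54, adjusted p = 1.29e-05). Lymph node minus TLS was 0.39 (95% confidence interval -0.88 to 1.65, adjusted p = 0.749). Within each of the 3 mice with both tissues Igj was higher in TLS than in kidney, 16.5-fold in mouse H6, 19.2-fold in mouse H20 and 53.6-fold in mouse H115.

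Antibody constant region genes were looked at beside it, since the J chain binds IgM and IgA. IgM (Ighm) had a mean value of 73.4 ± 40.1 (SD, n = 4) in kidney, 1510 ± 627 (n = 3) in TLS and 3784 ± 436 (n = 3) in lymph node of proteinuric mice. IgA (Igha) was at 55.3 ± 33.7, 362 ± 195 and 252 ± 73.1 in the same groups. Both were higher in TLS than in kidney, with kidney minus TLS at -4.50 on the log2 scale for Ighm (limma, adjusted p = 0.000213) and -3.00 for Igha (adjusted p = 0.0237). Neither passed the test between lymph node and TLS (Ighm 1.40, adjusted p = 0.166, and Igha -0.38, adjusted p = 0.842). Of the 7 constant region genes listed, 6 were lower in kidney than in TLS (8.62% of all genes tested were). The median difference was -5.00 on the log2 scale beside 0.01 over all genes. The exception was Igkc, the kappa light chain, with mean values of 230 in kidney, 306 in TLS and 297 in lymph node of proteinuric mice. Its kidney minus TLS difference was -0.46 (limma, adjusted p = 0.56). Between lymph node and TLS, 0 of the 7 were called (median 0.82 beside 0.04), beside 10.6% of all genes. The constant regions of the IgG subclasses are similar in sequence, and how reads between them were counted is not given in the sources used here. The treatment of shared reads is not given for Igkc either, so its values describe only the reads counted for that gene entry. Whether kappa RNA as a whole differs as little between kidney and TLS was not tested.

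Mzb1 (ENSMUSG00000024353) had the largest difference of the tested members between kidney and the lymphoid samples. Kidney values were 3.54, 12.7, 4.64 and 8.87 in mice H6, H20, H115 and H117, from between 3 and 14 reads. TLS values were 528, 163 and 148 in mice H6, H20 and H115, and lymph node values of proteinuric mice 972, 555 and 299 in mice H6, H20 and H117. All TLS and lymph node libraries lay above all kidney libraries, and TLS of mouse H6 was the only TLS library inside the lymph node range. Antibody-positive lymph nodes were at 492, 402 and 431 and spread less (mean 442 ± 45.8, SD, n = 3) than proteinuric ones (609 ± 340, n = 3), and the young node was at 303. On the log2 scale, kidney minus TLS was -4.94 (SE 0.56, limma, adjusted p = 0.000155) and kidney minus lymph node -6.15 (SE 0.56, adjusted p = 3.65e-06). Lymph node minus TLS was 1.22 (95% confidence interval -0.09 to 2.53, adjusted p = 0.259). In the 2 mice with both, Mzb1 was lower in TLS than in lymph node, at 0.543 and 0.293 of the lymph node value in mice H6 and H20. Exons of Mzb1 overlap those of Spata24 on the same strand, and Spata24 had between 1 and 5 reads in kidney and between 1 and 8 over all libraries.

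Derl3 (ENSMUSG00000009092, GRCm38 chromosome 10, 75893413 to 75895941, plus strand) had few reads in kidney, with 3, 2, 0 and 0 in mice H6, H20, H115 and H117. TLS values were 56.0, 14.1 and 8.72 in mice H6, H20 and H115, from 65, 17 and 7 reads. Lymph node values were 53.6, 49.3 and 35.6 in proteinuric mice H6, H20 and H117, 65.8, 38.1 and 42.4 in antibody-positive mice D10, D11 and L25, and 35.8 in the young mouse. TLS of mouse H6 was inside the lymph node range, and the other TLS libraries were below every lymph node and above every kidney. With reads pooled by group, Derl3 was 19.8-fold higher in TLS than in kidney (89 reads against 5, exact 95% counting interval 8.17 to 62.4). On the log2(value + 1) scale, which understates changes of genes with few reads, kidney minus TLS was -2.70 (SE 0.51, limma, adjusted p = 0.00385) and kidney minus lymph node -3.89 (SE 0.51, adjusted p = 5.84e-05). Lymph node minus TLS was 1.19 (95% confidence interval 0.01 to 2.38), with an unadjusted p of 0.0485 and an adjusted p of 0.217 (limma). Without TLS of mouse H6 it was 1.94 (adjusted p = 0.00789), so 1 library decided this call. Its relatives were also listed. Derl1, a derlin of many cell types, had mean values of 28.1 ± 3.68 (SD, n = 4) in kidney, 30.3 ± 3.29 (n = 3) in TLS and 35.2 ± 5.14 (n = 3) in lymph node, and kidney minus TLS was -0.11 on the log2 scale (95% confidence interval -0.70 to 0.49, adjusted p = 0.848). Derl2 had means between 3.40 and 5.37 in all groups and was too low to be tested.

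The promoters of Derl3 and Igj are printed. Like all 5 members tested, both genes were lower in kidney than in TLS and lymph node. The promoter of Derl3 also held the one complete ER stress element among the 5 members searched, and Mzb1 had no entry. The sequences are from RefSeq (GRCm38.p6) and run from 250 bases before to 50 bases after the annotated start, and 5 of the 6 members had an entry (Igj, Derl3, Xbp1, Prdm1 and Sdc1). The Prdm1 window (chr10:44458699-44458998, minus strand) lies inside the gene span given below, away from its outermost start. Capitals mark CCACG on either strand and, in the complete element, the CCAAT that precedes CCACG by 9 bases.
Derl3 (chr10:75893148-75893447, plus strand): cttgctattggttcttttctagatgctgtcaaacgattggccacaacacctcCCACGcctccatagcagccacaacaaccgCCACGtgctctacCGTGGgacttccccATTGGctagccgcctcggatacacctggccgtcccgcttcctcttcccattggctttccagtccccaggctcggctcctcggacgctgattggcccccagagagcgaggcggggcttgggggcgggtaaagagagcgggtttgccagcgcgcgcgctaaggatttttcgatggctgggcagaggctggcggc
Igj (chr5:88527848-88528147, minus strand): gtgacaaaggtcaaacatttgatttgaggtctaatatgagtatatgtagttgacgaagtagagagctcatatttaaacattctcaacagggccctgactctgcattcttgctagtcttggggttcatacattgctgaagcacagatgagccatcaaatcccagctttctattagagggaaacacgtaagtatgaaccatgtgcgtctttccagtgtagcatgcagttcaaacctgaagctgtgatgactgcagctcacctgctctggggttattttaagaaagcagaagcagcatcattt
The element in Derl3 was on the opposite strand at bases 95 to 113, counted from 1 at the 5′ end of the window. Such a CCAAT, 9 bases and CCACG were found on either strand in 0.119% of the 32851 promoters in the table. CCACG alone, which is part of that element, was found in Derl3 (3 times), Prdm1 (2 times) and Sdc1 (1 time), and in 32.8% of all promoters. The unfolded protein response element TGACGTGG (0.676% of promoters) and the octamer ATTTGCAT (1.74%) were in none of the 5 windows, and Igj and Xbp1 held none of the motifs searched. These matches describe letters in the windows only.

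Xbp1 (ENSMUSG00000020484, GRCm38 chromosome 11, 5520659 to 5525893, plus strand) is active in all cells with a loaded ER, and among the tested members its kidney level was, with that of Sdc1, the least far from that of the lymphoid samples. Kidney values were 79.6, 54.0, 34.8 and 21.3 in mice H6, H20, H115 and H117. TLS values were 143, 116 and 91.6 in mice H6, H20 and H115, and lymph node values 129, 134 and 141 in proteinuric mice H6, H20 and H117. Every TLS library was above every kidney library, and the lymph node values were the most even of all groups of the gene. Antibody-positive nodes were at 154, 141 and 145, and the young node at 138. On the log2 scale, kidney minus TLS was -1.42 (SE 0.42, limma, adjusted p = 0.0401) and kidney minus lymph node -1.64 (SE 0.42, adjusted p = 0.00714). Lymph node minus TLS was 0.22 (95% confidence interval -0.76 to 1.2, adjusted p = 0.83). With the mouse as a replicate block, kidney minus TLS was -1.29 and missed the threshold (adjusted p = 0.0582). The call was lost in 12 of 23 other settings, among them without any one of kidney H115, kidney H117, TLS H6, TLS H20 or the 3 lymph nodes, with adjusted p between 0.0529 and 0.153 (limma). The lowest sample, kidney H117, was the library with 55.6% ribosomal RNA reads, and without it the difference was -1.10 (adjusted p = 0.0946).

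Prdm1 (ENSMUSG00000038151, GRCm38 chromosome 10, 44437177 to 44528501, minus strand) was the least read member. It had 0 reads in each of the 4 kidneys, 6, 3 and 0 in TLS of mice H6, H20 and H115, and 2, 3 and 6 in lymph node of proteinuric mice H6, H20 and H117. The antibody-positive nodes had 3 reads each and the young node 4. Kidney and lymph node thus did not overlap, and TLS of mouse H115 had no read, like the kidneys. Pooled Prdm1 was at 3.33 times the group floor of 3 reads over the 4 kidneys in TLS (9 reads, 6 of them in mouse H6). In lymph node of proteinuric mice it was at 4.6 times that floor (11 reads). The lower limits of the exact 95% counting intervals over kidney, which also take in the error of these 9 and 11 reads, were 2.19-fold and 3.15-fold. Pooled reads leave out the spread between mice. Lymph node and TLS did not differ beyond counting error (ratio 1.38, exact 95% counting interval 0.52 to 3.77). In a fit without the filter on low values, kidney versus TLS had an adjusted p of 0.187 and kidney versus lymph node one of 0.0114 (limma).

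Sdc1 (ENSMUSG00000020592, GRCm38 chromosome 12, 8771323 to 8793715, plus strand) marks plasma cells within the blood lineage, but syndecan-1 is also carried by epithelia. Kidney values were 11.5, 7.59, 3.48 and 3.55 in mice H6, H20, H115 and H117, from between 1 and 12 reads. TLS values were 36.5, 10.2 and 22.9 in mice H6, H20 and H115, and lymph node values 23.2, 16.1 and 14.6 in proteinuric mice H6, H20 and H117. TLS of mouse H20 was below kidney of mouse H6, so these groups overlapped, whereas all lymph nodes of proteinuric mice were above all kidneys. Antibody-positive nodes were at 20.4, 19.0 and 11.5, and the young node at 12.5. Sdc1 was the one member whose mean was higher in TLS (23.2 ± 13.1, SD, n = 3) than in any lymph node group (17.9 ± 4.6, n = 3, in proteinuric mice), and that difference was within the spread (lymph node minus TLS -0.21 on the log2 scale, 95% confidence interval -1.28 to 0.86, limma, adjusted p = 0.85). Kidney minus TLS was -1.66 (SE 0.46, limma, adjusted p = 0.0298) and kidney minus lymph node -1.44 (SE 0.46, adjusted p = 0.0229). The first call was lost without TLS of mouse H6 (-1.26, adjusted p = 0.153), kidney of mouse H115 (-1.45, adjusted p = 0.0876), kidney of mouse H117 (-1.46, adjusted p = 0.0796) or TLS of mouse H115 (-1.58, adjusted p = 0.0583). The second was lost in 5 of 23 other settings. These were leaving out kidney of mouse H115 (-1.24, adjusted p = 0.0651), kidney of mouse H117 (-1.25, adjusted p = 0.0606), lymph node of mouse H6 (-1.25, adjusted p = 0.0831) or all 3 libraries with over 20% ribosomal RNA reads (-1.06, adjusted p = 0.176), and the edgeR quasi-likelihood test with TMM scaling (-1.45, adjusted p = 0.0516).

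Urothelial genes also differed between kidney and TLS. Of the 8 urothelial markers listed, 7 were in the table, and all 5 that were tested were higher in TLS than in kidney (8.62% of all genes tested were). Upk1b, Upk2 and Krt5 had kidney means of 1.46, 1.68 and 2.69 and lymph node means of 1.07. They thus passed the filter at a mean of 5 only through TLS, so the filter itself favoured this direction. Upk3a and Psca were at 5.06 and 7.50 in kidney, 1.07 in lymph node, and 154 and 134 in TLS. The means of these genes thus also rested mostly on TLS. Summed normalised reads of the 7 urothelial markers were 417, 135 and 748 in TLS of mice H6, H20 and H115. They were between 0 and 22.0 in kidney, and 0 in each lymph node of proteinuric mice, where all 7 had no read. General epithelial markers summed to 602, 286 and 644 in the same TLS libraries and to between 90.5 and 369 in kidney, and 1 of the 9 was called higher in TLS. TLS of mouse H20 was thus the lowest TLS library for Sdc1, for urothelial and for epithelial genes. It was also the lowest for summed B-cell (319) and macrophage (387) markers, but not for T-cell markers (98.1 in mouse H115). Sdc1 was highest in TLS of mouse H6, whereas urothelial and epithelial sums were highest in TLS of mouse H115. The part of urothelial and epithelial genes in the Sdc1 values of TLS was not tested. In lymph nodes of proteinuric mice, which lacked reads of 8 of the 9 general epithelial markers, Sdc1 was at 14.6 to 23.2. Other syndecans had other patterns. Sdc4 was at 145 ± 31.4 (SD, n = 4) in kidney, 73.4 ± 22.0 (n = 3) in TLS and 12.6 ± 1.89 (n = 3) in lymph node, and was lower in lymph node than in TLS (lymph node minus TLS -2.42, limma, adjusted p = 0.00075). Sdc2 was likewise lower in lymph node than in TLS (-1.42, adjusted p = 0.0434). Sdc3 was at 6.21 ± 4.81 in kidney and 28.6 ± 10.4 in lymph node, and was lower in kidney than in lymph node (-2.27, adjusted p = 0.00814).

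**Figure D2:**
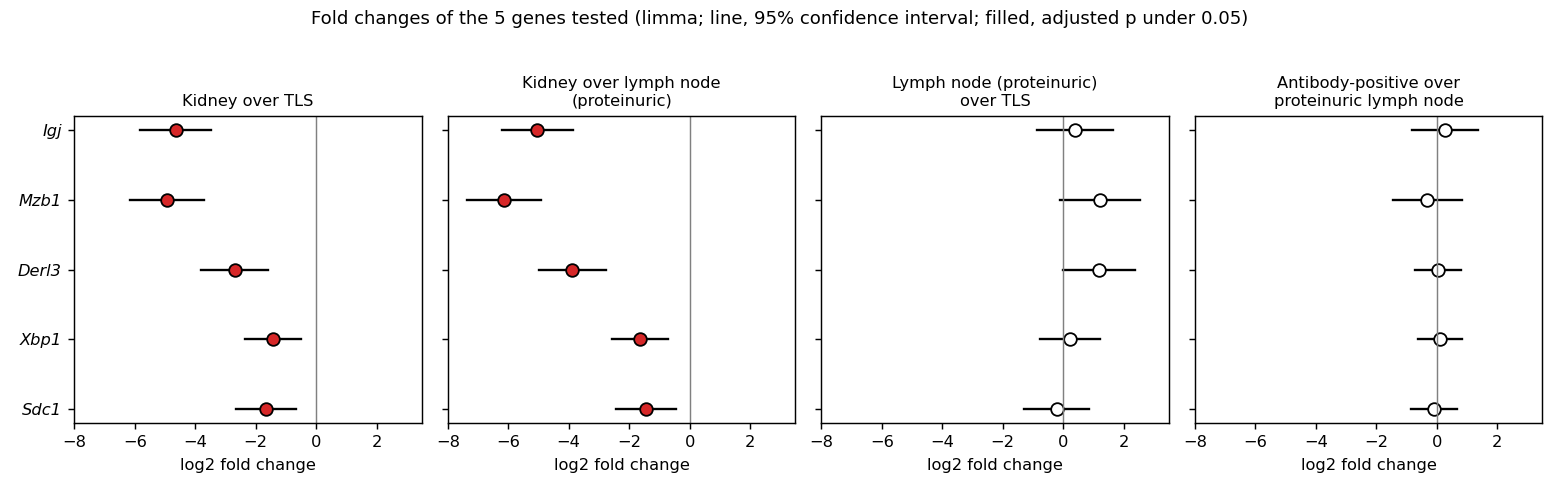
Log2 fold change with 95% confidence interval of the 5 tested genes in 4 comparisons, from limma on log2(value + 1), filled where the adjusted p was under 0.05. All 5 points are filled and below 0 for kidney over TLS (-4.94 to -1.42) and kidney over lymph node (-6.15 to -1.44), and none is filled in the other comparisons.

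Because genes differ in length, levels were compared between genes only as reads over the size factor per kilobase of annotated exon. In lymph node of proteinuric mice, Mzb1 (mean 500, range 246 to 799) and Igj (429, range 318 to 638) had the highest levels per kilobase, with ranges that overlapped. Xbp1 followed at 41.1 (39.3 to 43.1), then Derl3 at 22.6 (17.5 to 26.2), Sdc1 at 4.43 (3.61 to 5.71) and Prdm1 at 0.633 (0.509 to 0.87), and none of these ranges overlapped. In TLS the order was Igj (320), Mzb1 (230), Xbp1 (35.8), Derl3 (12.7), Sdc1 (5.85) and Prdm1 (0.445), and the ranges overlapped only between Igj and Mzb1 and between Derl3 and Sdc1 among neighbours. In kidney, Xbp1 (14.2, range 6.01 to 24.2) was close to Igj (13.8, range 3.68 to 21.1), and Mzb1 was lower (5.15, range 2.18 to 9.72).

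The tissues of single mice were set side by side, as mouse numbers link them. In mouse H6, TLS had the highest TLS values of 5 members (Mzb1, Derl3, Xbp1, Prdm1 and Sdc1), and Igj was highest in TLS of mouse H20. In mouse H6 the TLS value was 1.04 times that of lymph node for Derl3, 1.11 times for Xbp1, 1.57 times for Sdc1, 0.553 times for Igj and 0.543 times for Mzb1. In mouse H20 these ratios were 0.287 for Derl3, 0.871 for Xbp1, 0.634 for Sdc1, 1.16 for Igj and 0.293 for Mzb1. Only for Mzb1 was TLS below lymph node in both mice. TLS was above kidney in all 3 mice for the 5 tested members, from 1.35-fold (Sdc1, mouse H20) to 149-fold (Mzb1, mouse H6).

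**Figure D3:**
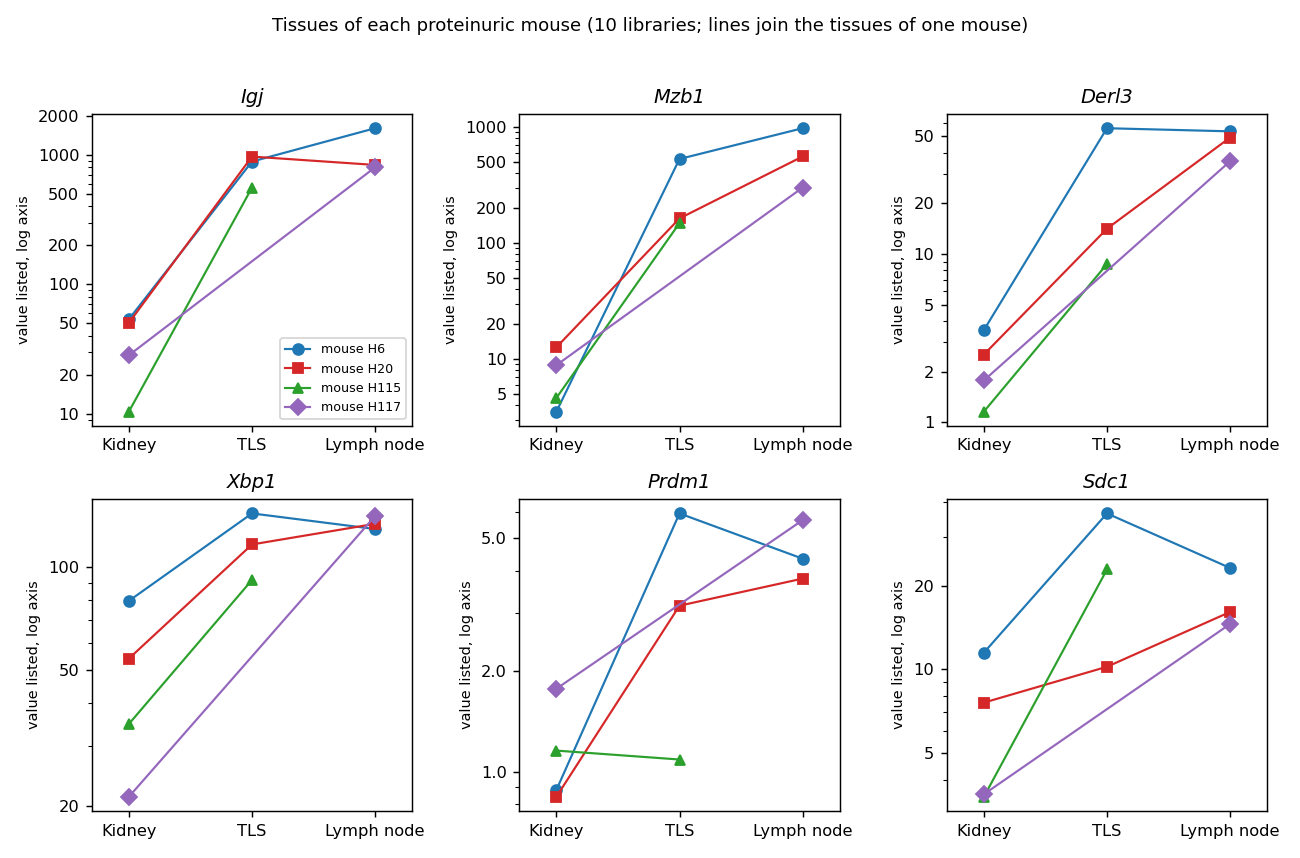
Value listed (log axis) of the 6 genes in kidney, TLS and lymph node of proteinuric mice, with lines joining the tissues of one mouse; mouse H115 has no lymph node and mouse H117 no TLS library. Lines rise from kidney to TLS for the 5 tested genes, and for Prdm1 in mouse H115, with 0 reads in both tissues, the line is nearly flat.

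The lymph node groups addressed whether plasma cell genes differ between the antibody-positive and the proteinuric stage. RNA kit and mouse age differ between these groups as well. Of the 5 members tested, 0 were called, and 0.0% of all 6810 genes tested were called (limma), with 215 genes and 0 members at an unadjusted p under 0.05. The edgeR quasi-likelihood test on the recovered reads called 0 genes and DESeq2 called 13, none of them a member. Antibody-positive minus proteinuric lymph node was, on the log2 scale, 0.27 for Igj (95% confidence interval -0.81 to 1.35), -0.31 for Mzb1 (-1.45 to 0.84), 0.06 for Derl3 (-0.71 to 0.82), 0.12 for Xbp1 (-0.61 to 0.85) and -0.09 for Sdc1 (-0.84 to 0.66), each with an adjusted p of 0.998. The intervals thus include changes of over 1.5-fold in either direction for each member tested. The young lymph node, 1 library without replicate, had 1579 reads of Igj (1413 normalised reads, exact 95% counting interval 1344 to 1484), 338 of Mzb1 (302, interval 271 to 336.5), 39 of Derl3 (34.9, interval 24.8 to 47.7), 153 of Xbp1 (137, interval 116 to 160), 13 of Sdc1 (11.6, interval 6.19 to 19.9), and 4 of Prdm1 (3.58, interval 0.98 to 9.16). All 6 members in it were inside the range of the other 6 lymph node libraries.

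Further plasma cell genes were counted in the same fits. Of 7 tested regulators of the plasma cell state, 3 were higher in TLS than in kidney, namely Pou2af1, a B-lineage coactivator (-4.37, adjusted p = 2.88e-05), Irf4 (-2.49, adjusted p = 0.00154) and Trp53inp1 (-2.08, adjusted p = 0.00173), all as kidney minus TLS on the log2 scale in limma. The median of the 7 was -1.30 beside 0.01 over all genes, of which 8.62% were called higher in TLS. Pou2af1, Irf4 and Trp53inp1 had kidney means of 1.38, 1.38 and 2.03. They passed the filter at a mean of 5 only through TLS and lymph node, so the filter favoured this direction. Bhlha15, which encodes the plasma cell factor MIST1, was too low to be tested, with 0 reads in each kidney, between 0 and 7 in TLS and between 4 and 9 in lymph node of proteinuric mice. Of 6 tested surface genes, 5 were lower in kidney than in TLS, with a median of -2.07, or -2.86 with the genes without a kidney read at their bound. They included Ly6c2 (-3.66, adjusted p = 0.000121), Tnfrsf13b, the receptor TACI (-2.09, adjusted p = 0.000297), Cxcr4, a homing receptor (-3.32, adjusted p = 0.000549) and Slamf7 (-2.04, adjusted p = 0.00172). The kidney means of these named genes were 1.82, 1.60, 2.26 and 1.165, so they too passed the filter only through the other tissues. Tnfrsf17, the plasma cell receptor BCMA, had 0 reads in kidney, a mean value of 5.61 ± 3.28 (SD, n = 3) in TLS and 10.4 ± 5.56 (n = 3) in lymph node, and did not pass the test between kidney and TLS (adjusted p = 0.0687).

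ER folding and secretion genes are used by all secretory cells. Of 33 tested, 5 were higher in TLS than in kidney (8.62% of all genes tested were), with a median of kidney minus TLS of -0.75 beside 0.01. Among them were Fam46c, a poly(A) polymerase of plasma cells (-2.60, limma, adjusted p = 0.000644), the signal peptidase subunit Sec11c (-1.95, adjusted p = 0.00301), Edem1 of ER-associated degradation (-1.50, adjusted p = 0.0121) and Creld2 (-1.89, adjusted p = 0.0257). Of these, Fam46c had no kidney read and passed the filter only through the other tissues. Against lymph node, 20 of 33 were lower in kidney (20.8% of all genes tested were), with a median of -1.25 beside -0.05. Between lymph node and TLS 0 of 33 were called (10.6% of all genes were, in either direction), and the median was 0.46 beside 0.04. Of the 7 regulators 1, Pou2af1, was higher in lymph node than in TLS (1.10, limma, adjusted p = 0.0477). Of the 6 surface genes 1, Tnfrsf13b, was (1.06, adjusted p = 0.0298). Both counts were near the 10.6% of all genes called there. B-cell genes had the same direction as the members, with 7 of 7 tested higher in TLS than in kidney, beside 8.62% of all genes. Of these, Ms4a1, Fcer2a, Pax5 and Spib had no kidney read and passed the filter only through the other tissues. Between lymph node and TLS, 1 of 7 (Fcer2a, 1.51, limma, adjusted p = 0.0391) was higher in lymph node, near the 10.6% of all genes called there. All 6 T-cell genes tested were likewise higher in TLS than in kidney (8.62% of all genes were). In lymph node 4 of 6 were higher than in TLS (10.6% of all genes were called, in either direction). Their kidney means were between 1.165 and 2.67, so all 6 passed the filter only through TLS and lymph node. Macrophage genes were called for 2 of 6, higher in TLS than in kidney, and germinal centre genes for 0 of 2, both beside the same 8.62%.

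Genes with patterns most like each member were sought among 7166 genes outside the antibody and T-cell receptor segments. Over all 14 libraries, which share the contrast of kidney with the rest, the nearest gene had a Pearson correlation of 0.986 with Igj (Glipr1), 0.987 with Mzb1 (Cd52), 0.976 with Derl3 (Rac2), 0.977 with Xbp1 (Mcm4), 0.955 with Prdm1 (Ikzf3) and 0.929 with Sdc1 (Mmp23). Over the 10 lymph node and TLS libraries alone, Mzb1 was most like Ssna1 (0.979), Fkbp11 (0.966) and Manf (0.959), the last 2 of which are ER folding genes. Derl3 was most like Ccl19 (0.973), Edem2 (0.959) and Sdf4 (0.936). Xbp1 was most like Clptm1l (0.947), Cpsf3l (0.946) and Edem1 (0.933). Prdm1 was most like Irf4 (0.942), Aagab (0.884) and Clptm1l (0.883), from at most 6 reads of Prdm1. The nearest to Igj was Gskip (0.92) and the nearest to Sdc1 was Smim4 (0.864). Among the members themselves in these 10 libraries, Derl3 correlated with Xbp1 (0.901) and with Mzb1 (0.893), whereas Sdc1 had values between -0.20 and 0.40 with the other members. These correlations describe the libraries, which differ in tissue, and no test was made of them.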

How the data were processed

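Per the labels and the study's methods, poly(A) RNA of each piece was sequenced on an Ion Torrent PGM and aligned to GRCm38 with CLC Genomics Workbench. The authors deposited 1 table with a normalized signal per gene and library, in which every value is a whole number of reads plus 1 divided by a size factor. Reads were recovered by dividing by the smallest value of a library and subtracting 1, and 100% of values came out whole (tolerance 1e-06). Strand setting and the treatment of shared reads are not given in the sources used here.

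Values were tested as log2(value + 1) with limma 3.58.1 (R 4.3.3, trend and robust moderation) over genes with a mean value of 5 or more, with Benjamini-Hochberg adjusted p under 0.05 as the call. The 10 libraries of proteinuric mice were fitted together (n = 4, 3 and 3), and the 6 lymph nodes of proteinuric and antibody-positive mice in a fit of their own. Differences are first minus second group, and this scale understates changes of genes with few reads. Alternatives included edgeR 4.0.16 (quasi-likelihood test) and DESeq2 1.42.0 on those reads, other filters and pseudocounts, and leaving out libraries. The scripts were tested on simulated data. Counting intervals (95%, exact Poisson or binomial) and the floor of 3 reads cover counting error only.

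Mouse numbers in the labels link tissues of one animal. Deviations from group means of kidney and TLS of the same mouse correlated at 0.351, 0.364 and 0.454, those of kidney and lymph node at -0.326, 0.202 and -0.335, and those of TLS and lymph node at -0.266 and 0.0254. The highest value between different mice was 0.512. The mouse was used as a block in an alternative because these tissues come from the same animals, although only the kidney and TLS pairs all deviated together. Different mice were the replicates.

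The 6 genes and all lists were chosen with earlier results of these data known. Other genes named are the 3 nearest by correlation and up to 4 of a list with the smallest p, while Ighm, Igha, Bhlha15 and Tnfrsf17 were added for their known roles after their values were seen. The study lists 15 whole-kidney samples that were not analysed here. A planned ratio of the members to B-cell reads and 1 gene of the B-cell list are not reported here.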

Additional observations from a re-analysis of the deposited data

Results flagged for a closer look

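The lymph node of the young mouse C45 (1 library, 4 weeks of age) entered no test, and all 6 plasma cell genes had more than 3 reads in it, the limit that a count of 0 allows. Its listed values were 1414 for Igj, 303.3 for Mzb1, 35.79 for Derl3, 137.8 for Xbp1, 4.474 for Prdm1 and 12.53 for Sdc1. Without a second young library the spread among young mice is unknown. Among the 4 kidneys no library stood apart from its group for any of the 5 members with kidney reads (largest gap 0.487 of the range, for Sdc1, where 0.829 is the limit). Groups of 3 were not checked in this way.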

How the results depend on the processing

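Igj, Mzb1 and Derl3 were lower in kidney than in TLS and lymph node in all 23 and 24 alternatives that gave a value. Of the 5 members, 3 were called between kidney and TLS without the 3 libraries over 20% ribosomal RNA, and 3 with only these 2 tissues in the fit, Xbp1 and Sdc1 being lost. Leaving out 1 library gave between 3 and 5 calls there, between 0 and 1 for lymph node versus TLS (Derl3, without TLS H6), and between 4 and 5 for kidney versus lymph node. With the mouse as a replicate block the members called were 4 (kidney and TLS), 0 (lymph node and TLS) and 5 (kidney and lymph node), and apart from Xbp1 the block changed no member's call. Xbp1 kept its kidney versus TLS call in 11 of 23 alternatives (adjusted p 0.00707 to 0.153) and Sdc1 in 16 of 22 (0.0142 to 0.153). For kidney versus lymph node Xbp1 kept its call in 24 of 24 and Sdc1 in 18 of 23 (0.0036 to 0.176), and a filter at a mean of 20 left Sdc1 untested. The cause of these losses was not tested.

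Some differences that passed no test changed sign. Without the libraries over 20% ribosomal RNA, Igj was -0.18 for lymph node minus TLS, and antibody-positive minus proteinuric lymph node was 0.11 for Mzb1 and 0.10 for Sdc1. The latter was -0.024 for Derl3 with edgeR (TMM), -0.022 with edgeR under DESeq2 size factors and -0.015 with DESeq2. Leaving out 1 library, ranges were -0.69 to 0.18 for Sdc1 (lymph node minus TLS), and for antibody-positive minus proteinuric -0.74 to 0.11 (Mzb1), -0.17 to 0.21 (Derl3) and -0.24 to 0.15 (Sdc1).

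Over all genes, those higher in TLS than in kidney numbered 636 of 7382 tested, but 346 of 2418 tested with a mean filter of 20, and 384 without TLS H6. Between lymph node and TLS they numbered 780, but 315 with that filter, 481 without TLS H115, 480 without lymph node H117, 408 without the libraries over 20% ribosomal RNA, 518 with only these 2 tissues and 1280 with all 7 nodes as one group. Those higher in lymph node than in kidney numbered 1532, but 638 with the filter at 20. That filter left 2418 genes to test in each of these comparisons, beside 7382, so its lower counts are not lower shares of the genes tested. Antibody-positive and proteinuric nodes differed in 0 genes, but in 13 with DESeq2, 5 without node D11 and 7 with all 14 libraries in the fit. Prdm1 was below the filter on low values and entered the fit only where that filter was dropped.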
